A study of Mus musculus with 30 samples.

Results

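MHC class I antigen presentation and the interferon-gamma response were described in mouse liver as a module of 40 genes named by symbol. The module holds the light chain and heavy chains of the MHC class I molecule, the peptide transport and loading machinery, the immunoproteasome and its PA28 activator, the regulators Nlrc5 and Irf1, the interferon-inducible GTPases, and the feedback inhibitor Socs1. A member was measured where a probe set of the array is annotated with its symbol alone, and where there were several, the brightest on average across the 30 arrays stood for the gene. By this rule 31 of the 40 members had a value, among 17097 genes in all, and 11 of the 31 had several probe sets. The 9 members not analysed here for want of such a probe set were B2m, H2-L, H2-Q6, H2-Q7, H2-T22, Tap1, Tap2, Gbp6 and Gbp9.

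RNA came from fresh-frozen liver outside tumours of 30 mice, 1 array per mouse. The 5 healthy mice ate chow, and their treatment label is vehicle. All other mice ate CD-HFD, which is high in fat and deficient in choline and serves as a model of steatohepatitis that goes on to hepatocellular carcinoma (HCC). Of these diet mice, 9 were given vehicle, and 5 of the 9 are labelled as not having developed HCC and fibrosis and 4 as having developed them, called vehicle without and with HCC here. The series' design text counts 4 vehicle mice instead of 9, and the labels were followed. Sulindac, which inhibits cyclooxygenases, was given to 10 diet mice, and the platelet inhibitors aspirin and clopidogrel together to 6, in both cases as prophylaxis. The labels do not say which drug-treated mice developed HCC, and they give no strain, sex, age or batch. A comparison of a drug group with healthy mice therefore joins diet and drug, and the contributions of diet and drug cannot be told apart there.

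MHC class I molecules carry peptides made from the cell's own proteins to the surface, where CD8+ T cells read them. Interferon-gamma, released by T cells and natural killer cells, acts on promoters through GAS elements and, by way of IRF1, through ISRE elements, and so raises the immunoproteasome, the peptide transporter and the heavy chains, the last also through NLRC5. The same signal induces guanylate-binding proteins (GBPs) and immunity-related GTPases (IRGs), large GTPases that act against pathogens living inside cells, and type I interferon induces many of these genes as well.

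Promoters of 6 members are shown for the elements they hold close to the annotated start. Irgm2, Igtp, Gbp7, Gbp3 and H2-T23 passed a test given below, and Tgtp1, which did not, is shown because its elements are arranged as in Irgm2 and Igtp. The first 3 and Tgtp1 hold both kinds of element, whereas Gbp3 and H2-T23 hold only the ISRE kind. Each line gives the 150 bases before the start on the gene's own strand, 5′ to 3′, from RefSeq on GRCm38.p6, with letters that match the GAS core TTCNNNGAA or the ISRE core (GAAA, any 2 bases, GAAA), on either strand, in capitals.
Irgm2: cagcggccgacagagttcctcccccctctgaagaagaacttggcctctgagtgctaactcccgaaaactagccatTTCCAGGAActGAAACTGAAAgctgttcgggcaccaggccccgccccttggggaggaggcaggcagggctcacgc
Igtp: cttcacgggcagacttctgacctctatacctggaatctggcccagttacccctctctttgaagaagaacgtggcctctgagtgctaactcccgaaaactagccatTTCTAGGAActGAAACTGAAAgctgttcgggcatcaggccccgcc
Tgtp1: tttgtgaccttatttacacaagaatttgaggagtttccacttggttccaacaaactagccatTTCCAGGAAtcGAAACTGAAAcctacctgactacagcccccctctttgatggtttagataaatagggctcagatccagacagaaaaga
Gbp7: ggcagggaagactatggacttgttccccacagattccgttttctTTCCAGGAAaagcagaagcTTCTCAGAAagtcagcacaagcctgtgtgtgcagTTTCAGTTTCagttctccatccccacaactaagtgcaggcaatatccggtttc
Gbp3: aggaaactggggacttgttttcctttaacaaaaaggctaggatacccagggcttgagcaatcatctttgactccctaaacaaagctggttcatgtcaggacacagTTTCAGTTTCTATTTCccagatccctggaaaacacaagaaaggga
H2-T23: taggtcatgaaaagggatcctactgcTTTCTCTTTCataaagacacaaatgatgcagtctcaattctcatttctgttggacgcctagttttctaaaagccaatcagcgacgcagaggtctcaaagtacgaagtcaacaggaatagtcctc

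The Irgm2 stretch is chr11:58214827-58214976 on the plus strand, that of its neighbour Igtp is chr11:58199406-58199555 on the plus strand, and that of Tgtp1 is chr11:48992247-48992396 on the minus strand. The Gbp7 stretch is chr3:142530186-142530335 and that of the next gene, Gbp3, is chr3:142559894-142560043, both on the plus strand. The H2-T23 stretch is chr17:36032702-36032851 on the minus strand. In Irgm2, Igtp and Tgtp1 a GAS match is followed after 2 bases by the same ISRE letters, GAAACTGAAA, starting 64, 34 and 77 bases before the start. Gbp7 holds 2 GAS matches and an ISRE match on the other strand, Gbp3 holds 2 overlapping ISRE matches, and H2-T23 holds 1 ISRE match.

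Promoter windows of 300 bases (250 before and 50 after the start) were found for 28 of the 40 members, 32 windows in all. The ISRE core matched in 40.6% of these windows and in 3.44% of the 32851 windows of all genes, and the GAS core matched in 21.9% and 8.3%. Both cores stood together in 12.5% of the members' windows, those of Gbp7, Igtp, Irgm2 and Tgtp1, and in 0.454% of all windows. Among the 7 GTPase members with a window, 7 held an ISRE match and 4 a GAS match. Among the 10 heavy chains with a window, 2 held an ISRE match, 1 a GAS match, 9 a CCAAT box (letters CCAAT, in 37.4% of all windows) and 6 the letters TGACG (in 20.8%). The last 2 belong to the class I promoter module that NLRC5 acts on. A match is a description of letters and not evidence of binding in these livers.

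Signal is given as log2 of the deposited RMA intensity. The median intensity of an array lay between 24.1 and 24.6, and the arrays' highest log2 values lay between 13.42 and 13.74. Of the 31 measured members, 26 had a mean no lower than the median over genes, 4.90, and 5 lay below it (H2-Q1, H2-Q2, H2-T24, Gbp4 and Socs1), where changes are compressed by background. Over all genes, 4 arrays lay nearer to the mean of the other group than to their own when healthy and vehicle mice were compared. They came from healthy mice Hlth_1798 and Hlth_1807 and from vehicle mice without HCC Veh_low_794 and Veh_low_1819, and calls made with all mice are also given without them. Because they were picked by the contrast of healthy and vehicle mice, leaving them out widens that contrast by construction. The genes called there went from 2 to 959, so a call gained by this step is not support and is not given for single members. A call against healthy mice that is kept by this step is not support either. The step removes healthy mice Hlth_1798 and Hlth_1807, which lay nearer the vehicle mean. The members are tested within a fit of all genes (limma, 1 mean per group, Benjamini-Hochberg adjustment over 17097 genes). A gene passed at an adjusted p under 0.05.

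Against healthy livers, the members that passed the test were all higher on the diet, and their number differed between the diet groups. In mice given aspirin with clopidogrel 6 of 31 members rose (Irgm2, Iigp1, H2-T23, Gbp7, Igtp and Gbp3), against 2.77% of all genes called in either direction and 1.64% called higher. In mice given sulindac 3 of 31 rose (Iigp1, Irgm2 and H2-T23), against 2.98% of all genes in either direction and 1.99% higher. In vehicle mice with HCC 1 of 31 rose (Iigp1), against 0.0994% of all genes in either direction and 0.0292% higher. In vehicle mice without HCC none passed, with 0 called among all genes and 3 members at an unadjusted p under 0.05. When the fit held just the 2 groups of a comparison, Irgm2 alone passed for aspirin with clopidogrel (0.433% of all genes called), 7 members passed for sulindac (3.35%) and 0 for vehicle with HCC (0.00585%). These 4 comparisons share the 5 healthy mice, and whether the changes differ between the diet groups is a separate test given further on. In bulk liver, a difference in the number of cells of a type and a difference in RNA per cell cannot be told apart.

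More members lay above than below the healthy mean in each of these comparisons. The count was 22 of 31 for vehicle without HCC, 28 for vehicle with HCC, 26 for sulindac and 28 for aspirin with clopidogrel, where 53.7%, 49.5%, 52.8% and 51.2% of all genes were higher. The median change of the members was 0.06, 0.27, 0.20 and 0.25 on the log2 scale in that order, and the median of all genes lay within 0.01 of 0 each time. At an unadjusted p under 0.05, 3, 14, 11 and 16 of 31 members were higher, against 3.35%, 4.45%, 8.92% and 8.33% of all genes. The healthy group had the lowest of the 5 group means in 20 of the 31 members, aspirin with clopidogrel had the highest in 13 and vehicle with HCC in 11.

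**Figure D1:**
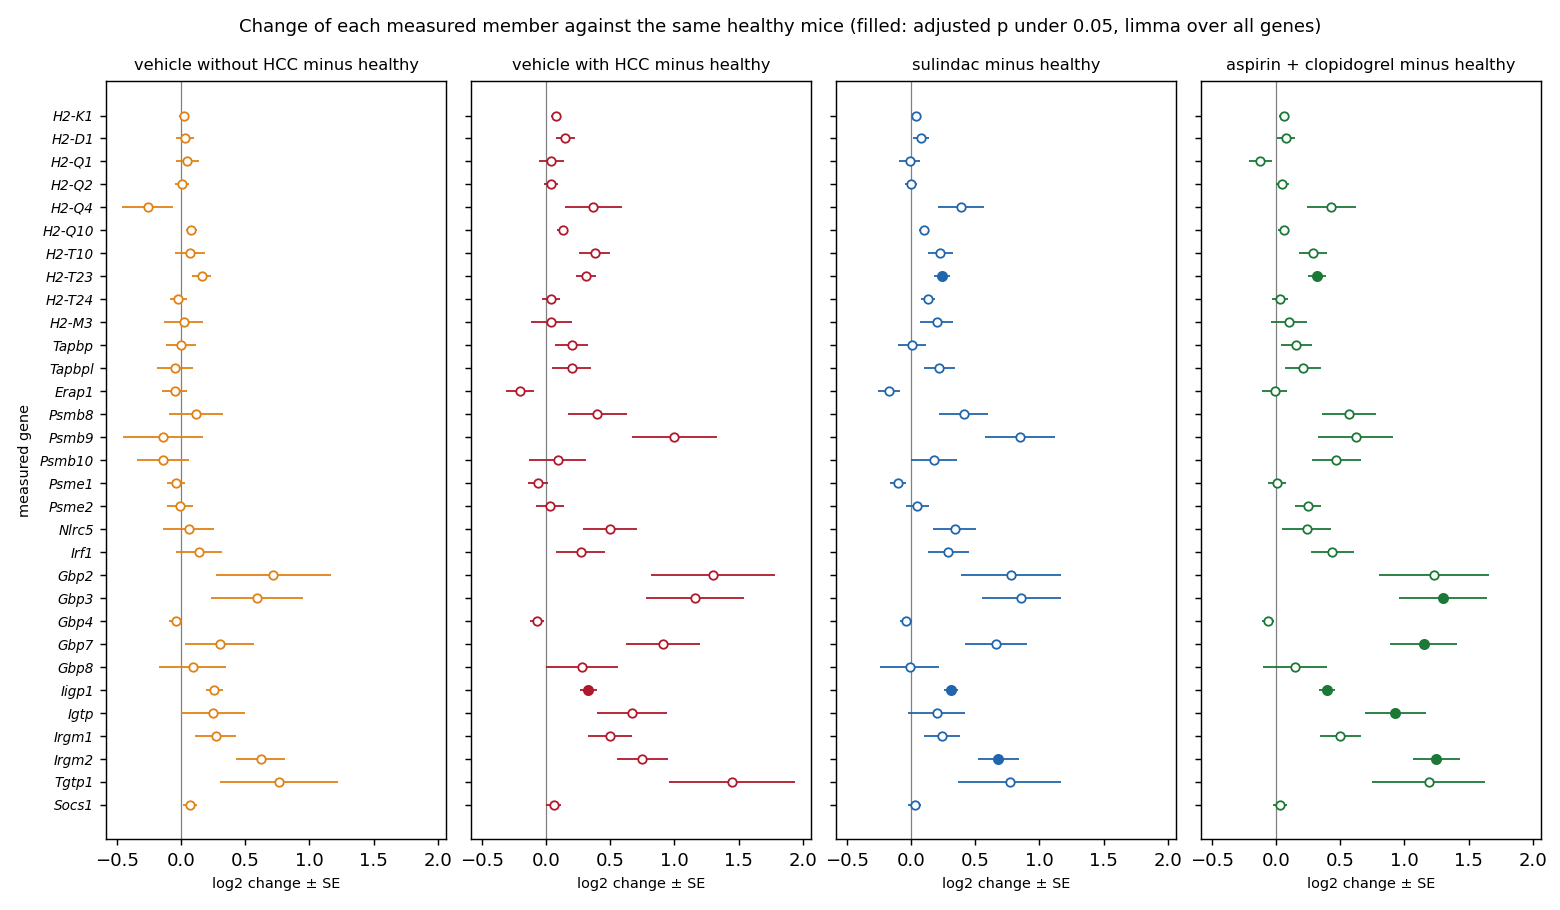
Log2 change ± SE (x axis) of each of the 31 measured members (y axis) in the 4 diet groups against the same 5 healthy mice, with filled points for an adjusted p under 0.05. The filled points are 1 in vehicle with HCC, 3 in sulindac and 6 in aspirin with clopidogrel, and the changes of the GTPases extend furthest to the right.

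Among the heavy chains, H2-T23, which encodes the nonclassical molecule Qa-1 recognised by natural killer cell receptors, was the member that passed. Its log2 intensity was 11.43, 11.25, 11.19, 11.32 and 11.29 in the 5 healthy mice (mean 11.30 ± 0.09 SD). In the 6 mice given aspirin with clopidogrel the lowest, median and highest values were 11.42, 11.61 and 11.84, and in the 10 given sulindac they were 11.33, 11.54 and 11.68. The groups overlapped only through healthy mouse Hlth_1798, the highest healthy value. H2-T23 rose by 0.32 in aspirin with clopidogrel (SE 0.070, adjusted p = 0.00948, limma with Benjamini-Hochberg) and by 0.24 in sulindac (SE 0.063, adjusted p = 0.0341, limma). Without any 1 mouse the call for aspirin with clopidogrel was kept (highest adjusted p = 0.0359, limma). The call for sulindac was lost without any 1 of healthy mice Hlth_1804, Hlth_1965, Hlth_1968 and Hlth_1807 or sulindac mice Sulin_23, Sulin_17 and Sulin_26 (highest adjusted p = 0.127, limma, without Hlth_1965). Without the 4 arrays the changes were 0.36 (adjusted p = 0.00621, limma) and 0.28 (adjusted p = 0.0184, limma). In vehicle with HCC the change was 0.31 (SE 0.077, adjusted p = 0.117, limma), and it passed without healthy mouse Hlth_1798 (adjusted p = 0.0413). A dimmer probe set of H2-T23, with a mean of 4.53, did not show the rise. It averaged 4.63 in healthy mice, 4.54 in sulindac and 4.43 in aspirin with clopidogrel.

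The classical heavy chains H2-K1 and H2-D1, which present peptides to CD8+ T cells, were close to the top of the arrays' range and had narrow ranges. H2-K1 averaged 12.44 ± 0.03 in healthy mice, 12.47 ± 0.08 in vehicle without HCC, 12.53 ± 0.04 in vehicle with HCC, 12.49 ± 0.04 in sulindac and 12.51 ± 0.05 in aspirin with clopidogrel (SD, n = 5, 5, 4, 10 and 6). Its whole range over 30 mice was 0.22, the smallest of the 31 members. The 4 vehicle mice with HCC (12.50 to 12.58) lay above all 5 healthy mice (12.42 to 12.48), as in 1.49% of all genes. The change was 0.08 (SE 0.038, adjusted p = 0.503, limma). H2-D1 was 0.15 higher in vehicle with HCC (SE 0.075, adjusted p = 0.548, limma) and 0.08 higher in each drug group, and its groups overlapped. The probe sets used for both genes share probes with related transcripts, so they may also read other heavy chains.

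Of the other nonclassical chains, H2-T10, annotated as a transcribed pseudogene, was 9.66 to 10.05 in healthy mice and 10.09 to 10.29 in vehicle with HCC. The groups did not overlap, as in 1.49% of all genes (change 0.38, SE 0.12, adjusted p = 0.238, limma). Its probe set may also read related transcripts. H2-Q4 averaged 6.65 ± 0.20 in healthy mice and 6.39 ± 0.46 in vehicle without HCC, and 7.02 ± 0.31, 7.04 ± 0.15 and 7.08 ± 0.51 in vehicle with HCC, sulindac and aspirin with clopidogrel (SD). H2-Q10, a heavy chain secreted by the liver, had a range of 0.37 over all mice, with 0.13 as its change in vehicle with HCC (adjusted p = 0.293, limma). H2-M3, which presents formylated peptides, was 0.20 higher in sulindac (adjusted p = 0.527, limma). H2-Q1, H2-Q2 and H2-T24 were dim and their group means lay between 4.20 and 4.51.

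In the loading step, Tapbp (tapasin) and Tapbpl (its relative TAPBPR) hold class I molecules until a peptide is bound, and Erap1 trims peptides in the endoplasmic reticulum. Tapbp was 10.30 to 10.48 in the 4 vehicle mice with HCC and 10.04 to 10.28 in the 5 without, the only member without overlap in that comparison, where 1.02% of all genes were higher without overlap. Its change of 0.20 (SE 0.13) did not pass (adjusted p = 0.720, limma). Erap1 was the loading gene with a lower mean on the diet, with changes of -0.20 in vehicle with HCC (adjusted p = 0.616, limma) and -0.17 in sulindac (adjusted p = 0.376, limma). It passed as lower in sulindac when healthy mouse Hlth_1807 was left out (adjusted p = 0.0453, limma). Its second probe set averaged 5.53 in healthy mice, 5.53 in sulindac and 5.41 in vehicle with HCC.

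The immunoproteasome subunits Psmb8, Psmb9 and Psmb10 replace the constitutive catalytic subunits Psmb5, Psmb6 and Psmb7 and favour peptides that fit class I molecules. Psmb9 had the widest range of the 3 (2.75 over 30 mice). Its log2 intensity was 8.11, 7.63, 7.90, 7.77 and 8.10 in healthy mice, and 8.01, 8.48, 7.63, 7.49 and 7.20 in vehicle mice without HCC. In vehicle mice with HCC it was 8.35, 8.55, 9.04 and 9.67. All 4 of these, and all 10 sulindac mice (8.33 to 9.06, median 8.76), lay above every healthy mouse, as in 1.49% and 0.907% of all genes, whereas mice given aspirin with clopidogrel ran from 6.92 to 9.19. Psmb9 was 1.14 higher in vehicle with HCC than without (SE 0.33, unadjusted p = 0.00161, adjusted p = 0.229, limma). It was 0.85 higher in sulindac than in healthy mice (SE 0.27, adjusted p = 0.0803, limma). Neither change passed, and the second did with only sulindac and healthy mice in the fit (adjusted p = 7.62e-04). Its second probe set was also higher in these 2 comparisons, with means of 5.54 and 6.11 in vehicle without and with HCC, and 5.47 in healthy and 5.86 in sulindac mice. Its remaining probe set, which is dim, gave 4.23 and 4.15 in the vehicle groups and 4.21 and 4.23 in healthy and sulindac mice.

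Mouse AspClo_60 of the aspirin with clopidogrel group had the lowest Psmb9 of all 30 mice. With that mouse left out, Psmb9 rose in the group against healthy mice (adjusted p = 0.0157, limma), as did Psmb8 (adjusted p = 0.0427, limma), from adjusted p = 0.315 and 0.152 with all mice. Psmb8 averaged 8.82 ± 0.38 in healthy mice, 9.23 ± 0.14 in sulindac and 9.39 ± 0.46 in aspirin with clopidogrel (SD). Psmb10 averaged 9.36 ± 0.19, 9.54 ± 0.18 and 9.82 ± 0.54 in the same groups. Both overlapped the healthy range.

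No constitutive catalytic subunit passed in these comparisons. Psmb5 averaged between 10.41 and 10.57 in the 5 groups, with the lowest mean in aspirin with clopidogrel (-0.14 against vehicle, SE 0.041, adjusted p = 0.0739, and -0.15 against healthy mice, adjusted p = 0.0844, limma), where 5 of 6 mice lay below all healthy mice. Psmb6 averaged between 10.79 and 10.81, and Psmb7 between 10.48 and 10.64. Of 16 constitutive proteasome genes listed beside the members, none passed in vehicle or in aspirin with clopidogrel against healthy mice, and 3 alpha-ring genes rose in sulindac (Psma5 by 0.32, Psma1 by 0.20 and Psma3 by 0.12). These calls rested on few mice. That of Psma5 was lost without any 1 of Hlth_1965, Hlth_1968 and Hlth_1807, and those of Psma1 and Psma3 without 13 and 11 of the 15 mice in turn. With the 4 arrays left out, Psma5 (0.29) and Psma1 (0.22) passed in sulindac and Psma3 (0.12, adjusted p = 0.0783, limma) did not. Psmb7 then passed as lower against healthy mice in vehicle with HCC (-0.27) and in aspirin with clopidogrel (-0.29), as did Psme3 (-0.50 and -0.43). Psma5 passed as higher in aspirin with clopidogrel against healthy mice (0.27). Against vehicle, Psmb5 passed as lower in aspirin with clopidogrel (-0.16) and Psma7 as higher in sulindac (0.17). Calls gained or kept by this step are not support. The PA28 activator opens the proteasome gate. Its alpha subunit Psme1 averaged between 10.58 and 10.70 in the 5 groups, and its beta subunit Psme2 was 0.25 higher in aspirin with clopidogrel than in healthy mice (SE 0.099, adjusted p = 0.198, limma).

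**Figure D2:**
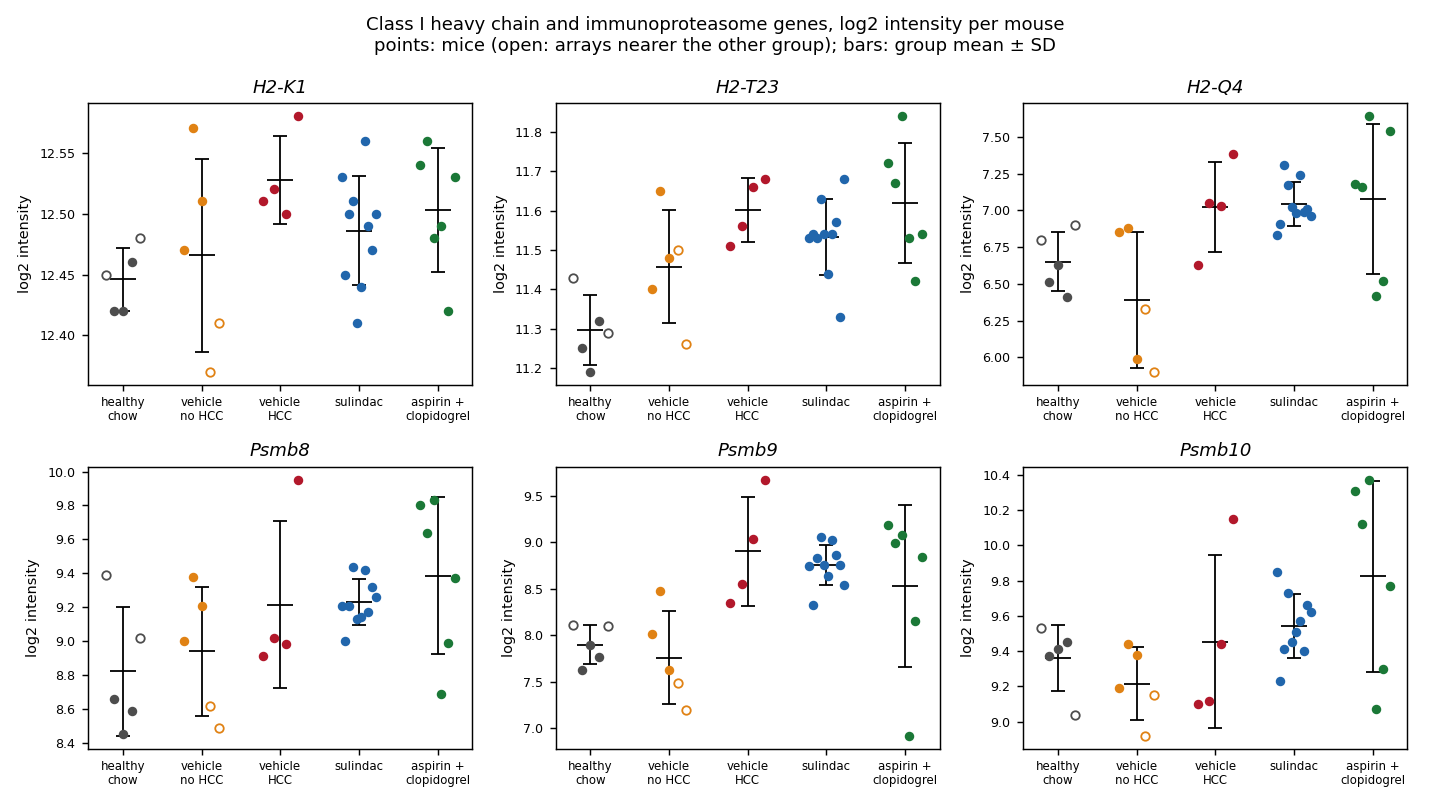
Log2 intensity (y axis) per mouse in the 5 groups (x axis) for 3 heavy chains and the 3 immunoproteasome subunits, with bars for the group mean ± SD and open points for the 4 arrays nearer the other group. Psmb9 in vehicle with HCC and in sulindac lies above all healthy mice, H2-K1 spans 0.22 in all, and 1 mouse given aspirin with clopidogrel has the lowest Psmb9.

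Of the regulators, Nlrc5, the transactivator of class I genes, averaged 5.84 ± 0.34 in healthy mice and between 5.90 and 6.33 in the diet groups, highest in vehicle with HCC (change 0.50, SE 0.21, adjusted p = 0.465, limma). Healthy mouse Hlth_1807 had 6.44 and the other 4 healthy mice had 5.62 to 5.72. Irf1, a transcription factor induced by interferon-gamma, averaged 7.52 ± 0.34 in healthy mice and 7.96 ± 0.30 in aspirin with clopidogrel (change 0.44, SE 0.17, adjusted p = 0.195, limma), with overlap. Socs1, which inhibits the receptor's JAK kinases, was dim in every group (means of 4.25 to 4.32). Ifng, which encodes the cytokine itself, had group means of 4.33 to 4.44, and Ciita, the class II transactivator, 4.26 to 4.37, all under the median gene mean.

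All 5 measured IRG genes had a higher mean in each of the 4 diet groups than in healthy mice, as had both classical heavy chains, both regulators and Socs1. Iigp1, an effector that loads onto pathogen vacuoles, was 11.36, 11.34, 11.18, 11.35 and 11.02 in healthy mice. The lowest and highest values were 11.44 and 11.56 in vehicle without HCC, 11.38 and 11.75 in vehicle with HCC, 11.50 and 11.64 in sulindac, and 11.54 and 11.83 in aspirin with clopidogrel. All 25 diet mice thus lay above all 5 healthy mice, as in 0.0175% of all genes (3 of 17097).

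Iigp1 rose by 0.33 in vehicle with HCC (SE 0.068, adjusted p = 0.0435), by 0.31 in sulindac (SE 0.055, adjusted p = 0.00191) and by 0.40 in aspirin with clopidogrel (SE 0.061, adjusted p = 3.34e-04, all limma with Benjamini-Hochberg). Both drug groups kept the call without any 1 mouse, with highest adjusted p-values of 0.0119 and 0.00179, and without the 4 arrays (0.27 and 0.36, adjusted p = 0.00761 and 0.00186). The call in vehicle with HCC was lost without any 1 of healthy mice Hlth_1804, Hlth_1965 and Hlth_1968 or vehicle mice Veh_high_798, Veh_high_1770 and Veh_high_2088 (highest adjusted p = 0.216, limma, without Veh_high_2088). That call was kept without the 4 arrays (0.29, adjusted p = 0.0187, limma), which is not support because the step widens this contrast. Over all 9 vehicle mice the change was 0.29 (SE 0.056, adjusted p = 0.0720, limma). It passed without healthy mouse Hlth_1798 or vehicle mouse Veh_high_1831 (lowest adjusted p = 0.0203). Its second probe set had group means of 10.74 in healthy mice and 11.02, 11.10, 11.09 and 11.17 in the diet groups. The intensity is near the top of the range of the arrays, and how far that limits the size of the change was not tested.

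Irgm2, a regulatory IRG that restrains the effector GTPases on the cell's own membranes, had the smallest adjusted p of the members together with Iigp1. It was 8.22, 7.87, 8.08, 8.41 and 7.77 in healthy mice and 9.73, 9.29, 9.25, 9.19, 8.93 and 9.52 in mice given aspirin with clopidogrel. Every value of the drug group lay above every healthy value, as in 1.19% of all genes. The rise was 1.25 (SE 0.18, adjusted p = 2.28e-04, limma), 2.38-fold, and it was kept without any 1 mouse (highest adjusted p = 0.00119) and without the 4 arrays (1.20, adjusted p = 0.00171). In sulindac the lowest, median and highest values were 8.36, 8.80 and 9.04, of which 1 lay within the healthy range. The rise there was 0.68 (SE 0.16, adjusted p = 0.0189, limma), and it was lost without healthy mouse Hlth_1804 or Hlth_1807 (highest adjusted p = 0.0585) and without the 4 arrays (0.63, adjusted p = 0.0571). In vehicle with HCC the change of 0.75 (SE 0.20, adjusted p = 0.145, limma) passed without vehicle mouse Veh_high_1831 (adjusted p = 0.0284).

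Igtp, also called Irgm3 and the neighbour of Irgm2, was 8.67, 8.53, 8.90, 8.95 and 8.09 in healthy mice. It was 9.81, 9.59, 9.74, 8.97, 9.38 and 9.89 in aspirin with clopidogrel, again without overlap, as in 1.19% of all genes. It rose by 0.93 (SE 0.24, adjusted p = 0.0292, limma). The call was lost without any 1 of healthy mice Hlth_1804 and Hlth_1807 or drug mice AspClo_61, AspClo_64, AspClo_58 and AspClo_63 (highest adjusted p = 0.0886, limma, without Hlth_1807) and without the 4 arrays (0.77, adjusted p = 0.0818). In sulindac the range was 8.46 to 9.47 and the change 0.20 (adjusted p = 0.748, limma). Igtp was 0.67 higher in vehicle with HCC (SE 0.27, adjusted p = 0.417, limma). Irgm1, which also acts in autophagy, was 0.50 higher in aspirin with clopidogrel (SE 0.16, adjusted p = 0.0864, limma) and passed there without mouse AspClo_60 (adjusted p = 0.0327). Irgm1 was also 0.50 higher in vehicle with HCC (SE 0.17, adjusted p = 0.296, limma). Tgtp1, an effector IRG, had the widest range of all members, 6.41 to 10.51, with the top value in vehicle mouse Veh_high_2088 with HCC. Its changes against healthy mice, 0.76 to 1.45 over the 4 diet groups, did not pass.

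**Figure D3:**
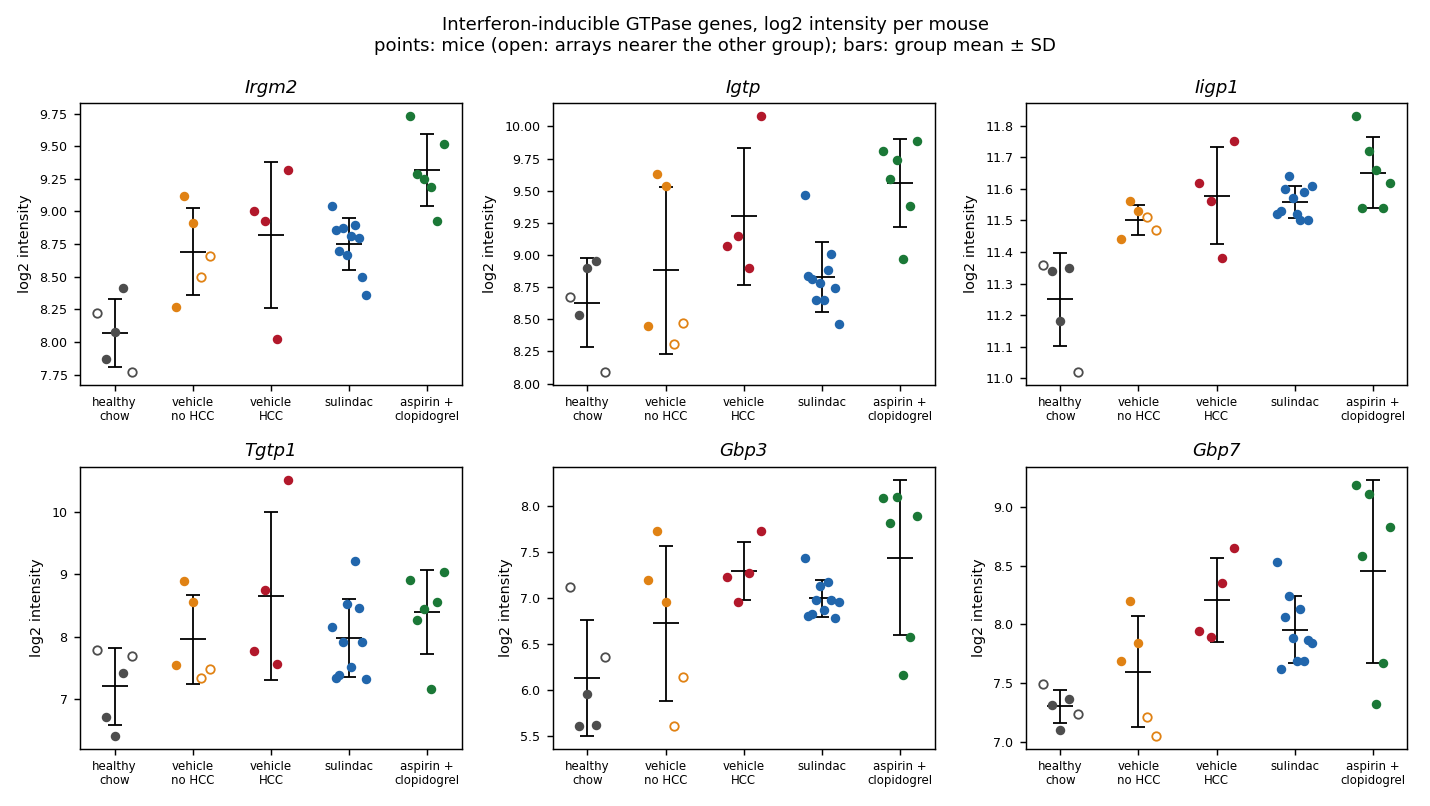
Log2 intensity (y axis) of 4 IRG and 2 GBP genes per mouse in the 5 groups (x axis), with bars for the group mean ± SD and open points for the 4 arrays nearer the other group. All 25 diet mice lie above the healthy mice in Iigp1, and all 6 mice given aspirin with clopidogrel lie above them in Irgm2 and Igtp.

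Of the GBPs, which coat pathogen vacuoles and bacteria, Gbp7 was 7.49, 7.31, 7.10, 7.36 and 7.24 in healthy mice and 7.94, 7.89, 8.35 and 8.65 in vehicle with HCC. It was 7.62 to 8.53 in sulindac, and 9.19, 8.58, 9.11, 7.32, 7.67 and 8.83 in aspirin with clopidogrel. The groups of vehicle with HCC and of sulindac lay wholly above the healthy mice, as in 1.49% and 0.907% of all genes. Drug mouse AspClo_60 (7.32) lay among the healthy mice. Gbp7 rose by 1.15 in aspirin with clopidogrel (SE 0.26, adjusted p = 0.0132, limma), kept without any 1 mouse (highest adjusted p = 0.0463) and without the 4 arrays (1.20, adjusted p = 0.0201). In vehicle with HCC it was 0.91 higher (SE 0.29, adjusted p = 0.238, limma) and in sulindac 0.66 higher (SE 0.24, adjusted p = 0.147, limma). Its second probe set averaged 6.11 in healthy mice, 6.66 in vehicle with HCC, 6.65 in sulindac and 7.29 in aspirin with clopidogrel.

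Gbp3 was 7.12, 5.61, 5.96, 5.62 and 6.36 in healthy mice and 8.08, 7.81, 8.09, 6.16, 6.58 and 7.89 in aspirin with clopidogrel. Drug mice AspClo_60 and AspClo_62 lay below healthy mouse Hlth_1798. It rose by 1.30 (SE 0.34, adjusted p = 0.0337, limma), and the call was lost without any 1 of healthy mice Hlth_1804, Hlth_1965 and Hlth_1968 or drug mice AspClo_61, AspClo_64, AspClo_58 and AspClo_63 (highest adjusted p = 0.0966, limma, without AspClo_58). Without the 4 arrays the change was 1.71 (adjusted p = 0.00183). In sulindac, where Gbp3 was 0.86 higher (SE 0.31, adjusted p = 0.143, limma), it passed without healthy mouse Hlth_1798 (adjusted p = 0.0431). Gbp3 was 1.16 higher in vehicle with HCC (SE 0.38, adjusted p = 0.252, limma). Gbp2 ranged from 5.25 to 6.85 in healthy mice and was 1.30 higher in vehicle with HCC (SE 0.48, adjusted p = 0.354, limma) and 1.23 higher in aspirin with clopidogrel (SE 0.43, adjusted p = 0.134, limma). Its highest value, 8.87, came from vehicle mouse Veh_high_2088. The probe set used for Gbp2 may also read related transcripts. A second one averaged 5.00 in healthy mice, 6.10 in vehicle with HCC and 6.18 in aspirin with clopidogrel. Gbp2 passed in aspirin with clopidogrel without mouse AspClo_60 (adjusted p = 0.0360). Gbp8 did not pass in any comparison, and Gbp4 was dim (4.25 to 4.32).

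Over all 9 vehicle mice against healthy mice, no member passed, where 0.0117% of all genes did. At an unadjusted p under 0.05, 10 of 31 members were higher and 0 lower, against 3.66% of all genes higher, and 27 of 31 had a higher mean, against 51.8%. Irgm2 was 0.68 higher (SE 0.17, adjusted p = 0.234, limma), and Tgtp1, Gbp2 and Gbp3 were 1.06, 0.98 and 0.85 higher. Irgm2 passed when vehicle mouse Veh_high_1831 was left out (adjusted p = 0.0271). Without the 4 arrays, a step that widens this contrast by construction and removes 2 of 5 healthy mice, 6 members passed, against 5.61% of all genes.

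Between vehicle mice with and without HCC, whose tissue was taken outside tumours in both groups, no member passed, where 0.0877% of all genes did. Psmb9 gave the largest difference (1.14), followed by Tgtp1 (0.69), H2-Q4 (0.63) and Gbp7 (0.61). Without the 4 arrays, 2 of which are vehicle mice without HCC, these were 0.86, 0.32, 0.45 and 0.30, and the differences of Gbp2 and Gbp3 went from 0.58 and 0.57 to 0.07 and 0.00. A two-sided exact permutation of mice gave p = 0.0238 for Psmb9 before adjustment, with 0.00794 the smallest value that 126 splits allow. For H2-Q4, Gbp7 and Tgtp1 the same permutation gave p = 0.0794, 0.0873 and 0.381. A higher mean with HCC was found in 26 of 31 members, against 46.6% of all genes, and 5 of 31 were higher at an unadjusted p under 0.05, against 3.34%. Mouse Veh_high_2088 had the highest value of the 4 mice with HCC in all 6 genes drawn in the plot of heavy chains and immunoproteasome subunits.

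Between sulindac and vehicle no member passed, where 0.199% of all genes did, and 17 of 31 members had a higher mean, against 53.2% of all genes. At an unadjusted p under 0.05, 3 members were higher, against 5.98%. The largest positive differences were Psmb9 (0.49, SE 0.22, adjusted p = 0.438, limma) and H2-Q4 (0.37, SE 0.15, adjusted p = 0.356, limma), and the largest negative ones were Tgtp1 (-0.29) and Igtp (-0.24). The sign for Psmb9 depended on the reference: sulindac was -0.15 against vehicle with HCC alone. Between aspirin with clopidogrel and vehicle no member passed either, where 1.96% of all genes did. At an unadjusted p under 0.05, 8 of 31 members differed, against 14.6% of all genes, of which 7 were higher, against 7.68%, and 24 of 31 had a higher mean, against 50.8%. The 2 drug comparisons share the 9 vehicle mice. Irgm2 was closest to the threshold, 0.57 higher with aspirin and clopidogrel (SE 0.16, adjusted p = 0.0521, limma). It passed without any 1 of vehicle mice Veh_low_1825 and Veh_high_2088 and drug mouse AspClo_62 (lowest adjusted p = 0.0240). Psmb10 (0.50, adjusted p = 0.128, limma) passed without any 1 of vehicle mouse Veh_high_2088 and drug mice AspClo_60 and AspClo_62 (lowest adjusted p = 0.0251), and Gbp7 (0.58, adjusted p = 0.215) passed without mouse AspClo_60 (adjusted p = 0.0338).

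The direct comparison of the drug groups asks whether levels with aspirin and clopidogrel differ from those with sulindac. No member passed, where 0.877% of all genes did. A higher mean with aspirin and clopidogrel was found in 21 of 31 members, against 48.3% of all genes, and 4 were higher at an unadjusted p under 0.05, against 4.91%. Igtp was 0.73 higher with aspirin and clopidogrel (SE 0.20, unadjusted p = 0.00128, adjusted p = 0.0812, limma), and 4 of the 6 mice lay above all 10 sulindac mice. Irgm2 was 0.57 higher (SE 0.15, unadjusted p = 9.22e-04, adjusted p = 0.0684, limma), and 5 of the 6 mice lay above all 10. Both lay close to the threshold, and both passed with only the 2 drug groups in the fit (adjusted p = 0.0291). Igtp passed without sulindac mouse Sulin_16 or drug mouse AspClo_60 (lowest adjusted p = 0.0418), and Irgm2 passed without drug mouse AspClo_62 (adjusted p = 0.0357). The change of Psmb9 was -0.23 (SE 0.25, adjusted p = 0.819, limma), and its sign turned without mouse AspClo_60 (0.09).

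By mouse, the mean over members relative to the healthy mean was 0.00 ± 0.14 in healthy mice, 0.13 ± 0.20 in vehicle without HCC, 0.37 ± 0.27 in vehicle with HCC, 0.26 ± 0.10 in sulindac and 0.40 ± 0.26 in aspirin with clopidogrel (SD, n = 5, 5, 4, 10 and 6). The 10 GTPases ranged more widely, with 0.38 ± 0.41, 0.73 ± 0.48, 0.45 ± 0.20 and 0.80 ± 0.41 in the 4 diet groups. The immunoproteasome with PA28 gave -0.04 ± 0.21, 0.29 ± 0.37, 0.28 ± 0.12 and 0.38 ± 0.43. The mean over members was highest in vehicle mouse Veh_high_2088 with HCC (0.78) and, among drug mice, lowest in mouse AspClo_60 given aspirin with clopidogrel (-0.02). Healthy mouse Hlth_1798 was the highest of its group (0.23). Sulindac mice were the most alike, between 0.14 and 0.42. These means were not tested.

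**Figure D4:**
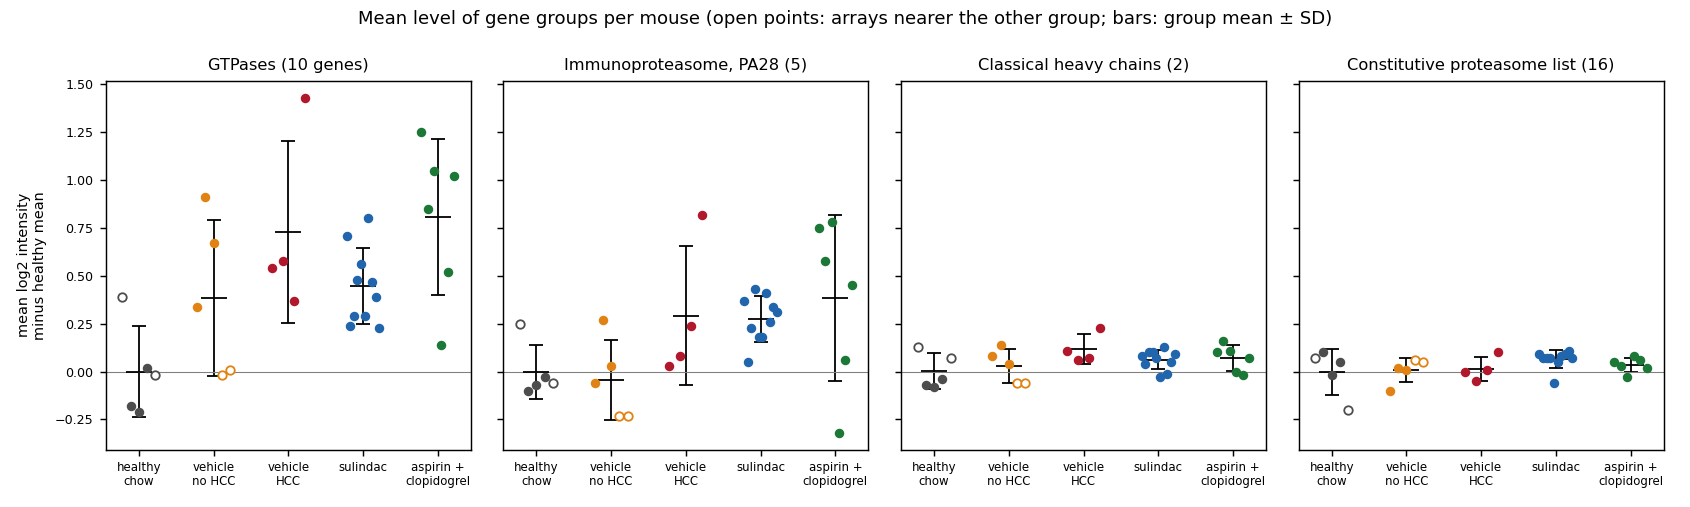
Mean log2 intensity minus the healthy mean (y axis) per mouse in the 5 groups (x axis) for the 10 GTPases, the 5 immunoproteasome and PA28 genes, the 2 classical heavy chains and 16 constitutive proteasome genes, on 1 scale, with bars for the group mean ± SD. The GTPase panel reaches 1.43 in a vehicle mouse with HCC and 1.25 with aspirin and clopidogrel, whereas the classical heavy chains and the constitutive proteasome stay within 0.23 of the healthy mean in every mouse.

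Members were also set against each other across mice for 4 pairs, each over all 30 mice and within the 2 drug groups, 12 relations in all. Over 30 mice the 5 groups are pooled, so differences between group means enter r, rho and their p-values there. Irf1 and Gbp2 gave Pearson r = 0.71 and Spearman rho = 0.66 over 30 mice (permutation p = 3.00e-05 and 1.00e-04, adjusted p = 1.80e-04 and 9.60e-04 over the 12), and r = 0.62 without the 2 mice farthest from the median Irf1. Within sulindac r was 0.64 and rho 0.78 (permutation adjusted p = 0.0642 and 0.0299). Within aspirin with clopidogrel both were 0.94 (exact permutation adjusted p = 0.00833 and 0.0333). Gbp2 and Igtp gave r = 0.68 and rho = 0.64 over all mice (permutation p = 1e-05, the smallest that 100000 resamples give, and 1.60e-04). Within sulindac r was 0.28 (permutation adjusted p = 0.445), and within aspirin with clopidogrel r was 0.91 (exact permutation adjusted p = 0.0381) but 0.57 without the 2 mice farthest from the median Gbp2, so there it rests on those mice. Irf1 and Psmb9 gave r = 0.55 and rho = 0.63 (permutation adjusted p = 0.00636 and 0.00128) over all mice. Within sulindac r was 0.45 and rho 0.62 (permutation adjusted p = 0.254 and 0.0903). Without the 2 mice farthest from the median Irf1, r there was 0.88. Within aspirin with clopidogrel r was 0.90 (exact permutation adjusted p = 0.0100), and 0.81 without the 2 such mice. Nlrc5 and H2-K1 gave r = 0.47 and rho = 0.42 (permutation adjusted p = 0.0162 and 0.0367), and r = 0.29 and 0.24 within the drug groups (permutation adjusted p = 0.445 and 0.651).

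**Figure D5:**
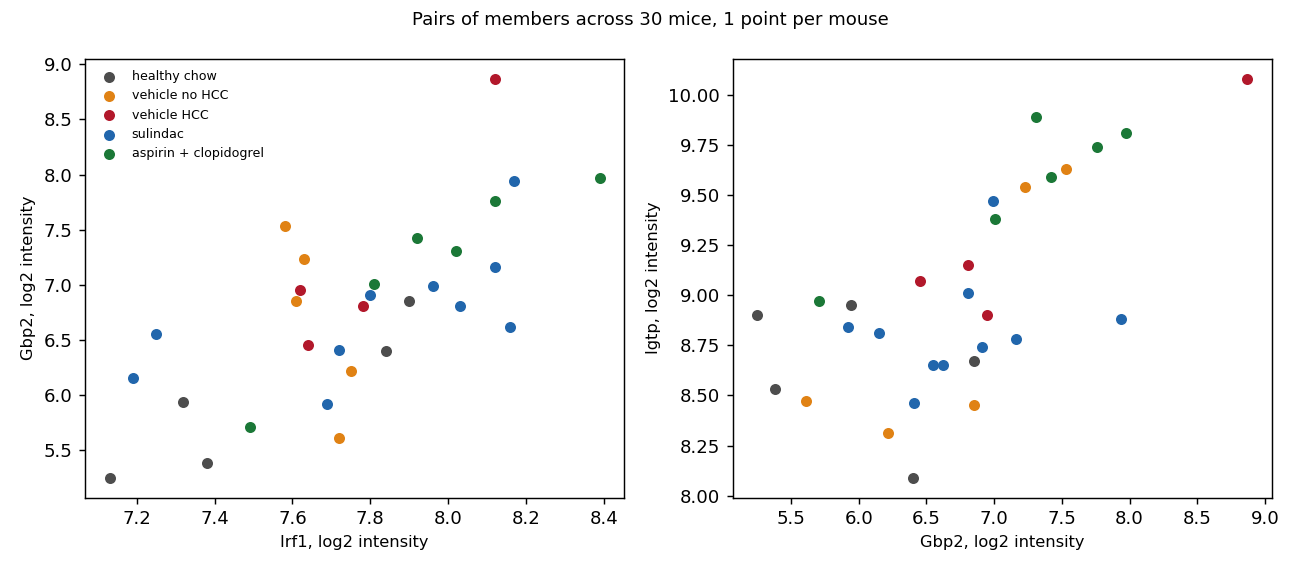
Log2 intensity of Gbp2 against Irf1 (left) and of Igtp against Gbp2 (right), 1 point per mouse coloured by group, for 30 mice. Both panels rise from left to right (r = 0.71 and 0.68), and mouse Veh_high_2088, with Gbp2 at 8.87, is the topmost point of each.

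Other genes of the same pathways were read from lists beside the members. Of 25 further interferon-gamma pathway genes, 2 rose in aspirin with clopidogrel against healthy mice, Irf9, a transcription factor of the interferon response (0.65, adjusted p = 0.00281, limma), and Gbp10 (1.21, adjusted p = 0.0425, limma). None of the 25 passed in the other comparisons with all mice. Gbp10 was 1.72 higher in vehicle with HCC than in healthy mice (SE 0.37, adjusted p = 0.0546, limma). Its change in aspirin with clopidogrel against vehicle was -0.03 (adjusted p = 0.979, limma). The call of Irf9 was kept without any 1 mouse (highest adjusted p = 0.0127) and without the 4 arrays (0.68, adjusted p = 0.00572). That of Gbp10 was kept without the 4 arrays (1.59, adjusted p = 0.00364) but lost without any 1 of Hlth_1804, Hlth_1965, Hlth_1968, AspClo_61, AspClo_64, AspClo_58 and AspClo_63 (highest adjusted p = 0.120). Cxcl9, an interferon-gamma-induced chemokine that attracts T cells, averaged 7.87 ± 0.49 in healthy mice and 8.65 ± 0.96, 9.45 ± 0.95, 9.09 ± 0.60 and 8.93 ± 0.92 in the diet groups (SD). Of 24 further class I pathway genes, Rfx5, a factor that binds class I and class II promoters, rose in aspirin with clopidogrel against vehicle (0.41, adjusted p = 0.0307, limma) and against healthy mice (0.52, adjusted p = 0.0114, limma). The call against vehicle was lost without any 1 of Veh_low_1825, AspClo_61, AspClo_64, AspClo_58 and AspClo_63 (highest adjusted p = 0.115), and that against healthy mice was kept (highest adjusted p = 0.0407). Both were kept without the 4 arrays (0.41 and 0.49, adjusted p = 0.0296 and 0.0398). Rfx5 averaged 6.35 ± 0.12 in healthy mice, 6.58 ± 0.15 in sulindac and 6.87 ± 0.33 in aspirin with clopidogrel. Of 19 genes induced mainly by type I interferon, 1 passed, Ifih1, a sensor of viral RNA, in sulindac against healthy mice (0.75, adjusted p = 0.0330, limma). The call was lost without any 1 of Hlth_1804, Hlth_1965, Hlth_1968, Hlth_1807 and Sulin_20 (highest adjusted p = 0.112) and kept without the 4 arrays (0.89, adjusted p = 0.00219). Without the 4 arrays, where 2.95%, 5.01%, 7.76% and 5.43% of all genes passed in vehicle without HCC, vehicle with HCC, sulindac and aspirin with clopidogrel against healthy mice, 8, 8, 9 and 8 of these 19 passed as higher. In the same 4 comparisons without the 4 arrays, 2, 6, 6 and 4 of the 25 interferon-gamma pathway genes passed as higher. With all mice, all 19 type I genes had a higher mean in vehicle with HCC than in healthy mice. Their median change was 0.44.

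Markers of other cell types moved with some of these groups, and their part in the members' changes was not tested. Of 21 T and natural killer cell markers 18 lay below the median gene mean, among them Cd3d, Cd8a and Klrb1c, and 0 passed against healthy mice in any diet group. Their summed intensity was 484 to 831 in healthy mice, 530 to 629 in vehicle without HCC, 559 to 916 in vehicle with HCC, 508 to 627 in sulindac and 500 to 624 in aspirin with clopidogrel. Of 16 macrophage and dendritic cell markers 4 lay below the median and 0 passed, and their sum ran from 2098 to 9673 in healthy mice, 3346 to 5893 in vehicle without HCC, 2143 to 5046 in vehicle with HCC, 3428 to 6233 in sulindac and 2471 to 6679 in aspirin with clopidogrel. Of 6 endothelial markers none lay below the median, and Pecam1 rose in sulindac (0.56, adjusted p = 0.0318, limma), a call lost without any 1 of Hlth_1965, Hlth_1968, Hlth_1807 and Sulin_23 and without the 4 arrays (0.47, adjusted p = 0.0706). Their sum was 1045 to 1709, 1401 to 2176, 1101 to 1966, 1744 to 2233 and 1734 to 2449 in the same order, so that both drug groups lay above all healthy mice. Of 5 B cell markers 4 lay below the median and their sum was 115 to 143 over all mice. The 10 hepatocyte markers, which define the labelled tissue, were all above the median, and 0 passed. With the 4 arrays left out, some markers of other cells also passed as higher against healthy mice. Of the macrophage and dendritic cell markers, Lyz2 passed in all 4 diet groups (0.66 to 0.99). Cd68 passed in sulindac (1.51) and in aspirin with clopidogrel (1.26). Ptprc (1.26), a gene of leukocytes in general, and Adgre1 (1.49) passed in sulindac, and Ccr2 (0.54) in vehicle with HCC. Others of that list were lower in vehicle with HCC without passing, among them Marco (-0.77), Vsig4 (-0.32), Timd4 (-0.28) and Clec4f (-0.24). These named markers were higher in both drug groups, also without passing. Against vehicle, Itgax passed as lower in aspirin with clopidogrel (-0.30, adjusted p = 0.0296, limma). Of the T and natural killer cell markers, Ccl5 passed in vehicle with HCC (1.95). The endothelial Lyve1 passed in vehicle without HCC (1.79) and in sulindac (1.51), and Stab2 in sulindac (0.54) and in aspirin with clopidogrel (0.71). The hepatocyte marker Tat passed as lower in sulindac (-0.73). That step widens the contrast for them as it does for the members.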

How the data were processed

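Expression was measured on Affymetrix HT MG-430 arrays, 1 per mouse, and the labels give the mice as separate animals. The authors deposited linear intensity values after RMA with quantile normalization, per the submitters' processing notes and the design text. Here log2 of these values was taken with no floor. Of 45141 probe sets 28898 carry 1 gene symbol, 551 several and 15588 none, besides 104 controls, and names come from the platform annotation. The probe set with the highest mean stood for each of 17097 genes.

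Groups follow the labels. limma 3.58.1 in R 4.3.3 fitted 5 group means over all 30 arrays (25 residual degrees of freedom), with vehicle as the mean over its 9 mice, moderated variances and Benjamini-Hochberg adjustment over all genes. The script was tested on simulated data. The vehicle groups and both drug groups were compared with healthy mice beside the 5 main comparisons. Alternatives were another normalization, probe set rule, filter, variance model, set of samples or reference, and each mouse left out. Promoter windows came from RefSeq on GRCm38.p6.

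The members and lists were chosen with earlier results of these data known. Genes named with values were role anchors, members past a test, and the 4 with the largest rise and fall in each main comparison. H2-T10, Irgm1, Tapbp, H2-M3 and genes that passed only under an alternative were named after their values were seen. The number of arrays limits the precision.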

Additional observations from a re-analysis of the deposited data

Results flagged for a closer look

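The highest and lowest mouse of each group was checked against the nearest other value for 24 members in 5 groups, 120 checks, of which chance flags about 1 in 20, or 6. The check marked 8. In healthy mice, mouse Hlth_1798 had the highest H2-M3 (6.70, nearest 6.14) and the lowest H2-Q10 (12.04, nearest 12.26), and mouse Hlth_1807 had the highest Nlrc5 (6.44, nearest 5.72). Both mice belong to the 4 arrays nearer the other group. In vehicle with HCC, mouse Veh_high_2088 had the highest Psmb8 (9.95, nearest 9.02) and mouse Veh_high_1831 the lowest H2-T24 (4.27, nearest 4.41). In sulindac, mouse Sulin_17 had the lowest Gbp4 (4.08, nearest 4.25) and mouse Sulin_15 the highest H2-Q1 (4.81, nearest 4.54). In aspirin with clopidogrel, mouse AspClo_58 had the lowest H2-T24 (4.24, nearest 4.36). H2-T24, Gbp4 and H2-Q1 have means below the median gene mean.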

How the results depend on the processing

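Over 50 results of named members and their alternatives, 1086 of 1179 values kept direction and side of the threshold, 39 lost the call, 26 gained it and 28 turned sign. Alternatives for the comparisons of single diet groups with healthy mice were chosen after seeing the data. The number of members called for vehicle against healthy mice was 0, and 1 with the mean of all probe sets, 4 with array weights and 6 when the 4 arrays that lay nearer the other group were left out, where 0.0292%, 2.19% and 5.61% of all genes passed. For aspirin with clopidogrel against vehicle it was 0, and 1 with dim genes left out, 1 with an intensity trend and robust variances, and 2 with array weights (4.70%, 1.83% and 3.59% of all genes tested). For aspirin with clopidogrel against sulindac it was 0, and 2 with only the compared groups in the fit, 2 with dim genes left out, 2 with array weights and 1 without the 4 arrays (1.40%, 2.64%, 2.38% and 2.01%). Against healthy mice, vehicle without HCC had 2 without the 4 arrays (2.95%). Vehicle with HCC had 0 with the most variable probe set, 0 with only the compared groups, 6 with weights and 7 without the 4 arrays (0.0526%, 0.00585%, 3.91% and 5.01%). Sulindac had 7 with only the compared groups, 9 with weights and 7 without the 4 arrays (3.35%, 9.44% and 7.76%), and aspirin with clopidogrel had 1 with only the compared groups and 11 with weights (0.433% and 7.14%). The 4 arrays were picked by the contrast of healthy and vehicle mice, so leaving them out widens it by construction. With 1 mouse left out, the members called ranged from 0 to 2 for vehicle against healthy, 0 to 2 for aspirin with clopidogrel against vehicle, 0 to 1 for aspirin with clopidogrel against sulindac, 0 to 2 for vehicle with HCC, 1 to 4 for sulindac and 4 to 10 for aspirin with clopidogrel against healthy.

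Several changes turned sign. With the most variable probe set H2-T23 was -0.083 in sulindac and -0.195 in aspirin with clopidogrel against healthy mice, and Erap1 was 0.001 in vehicle. For H2-T23 this is the dimmer probe set, with a mean of 4.53. Psme1 with against without HCC was 0.005 after another quantile normalization and 0.031 without the 4 arrays, where Gbp4 was 0.003 and Socs1 0.060. Against vehicle with HCC alone Psmb9 in sulindac was -0.146, and against vehicle without HCC alone Gbp2 was 0.059 and Tgtp1 0.013. Gbp8 in aspirin with clopidogrel was 0.026 with weights and 0.061 against vehicle without HCC. With 1 mouse left out, ranges that crossed 0 were -0.142 to 0.012 for Psmb10 in vehicle against healthy, -0.091 to 0.023 for Psme1, -0.073 to 0.012 for Gbp4 and -0.057 to 0.048 for Socs1 with against without HCC. They were -0.366 to 0.041 for Gbp2 in sulindac and -0.163 to 0.094 for Gbp8 in aspirin with clopidogrel against vehicle, and -0.360 to 0.094 for Psmb9 between the drugs. The cause of these turns was not tested. No paired analysis was possible because the numbers in the labels are those of single animals and no number occurs in more than 1 group. Signal close to background limits the 5 dim members.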
